A study of Mus musculus with 4 samples.

Results

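Dermal papilla and R-spondin genes are described here in dermal white adipose tissue (dWAT), the fat layer around the lower ends of hair follicles (HFs), of old and young mice. The set was chosen by name and holds 10 of the 22913 genes listed: the R-spondins Rspo1, Rspo2, Rspo3 and Rspo4, and the genes Vcan, Trps1, Alpl, Prom1, Sox2 and Sox18, which are used as markers of the dermal papilla. All 10 genes were found by symbol and had a value above 0 in each library. RNA sequencing gave 1 library for each of 4 groups of C57BL/6 mice, so there are no replicates, no difference carries an error between animals, and no p-value is given. OTD is dWAT of old mice in telogen, the resting phase of the HF. YTD is dWAT of young mice in telogen, OAD of old mice in anagen, the growth phase, and YAD of young mice in anagen. Old mice were 18 months and young mice 2 months of age by the treatment text of the labels, whereas the separate age field gives 18 months for YTD and 2 months for OAD. Groups followed the titles, which call each library old or young. In both anagen groups the growth phase was induced by plucking hair, and the day of harvest is not given in the sources used here. The paper reports that old mice took longer than young mice to enter anagen after plucking. Between OAD and YAD, age therefore cannot be told apart from time after plucking or stage of anagen. The tissue was scraped from the bottom of the HFs after the muscle and fat beneath had been removed, and the study used tissue of many mice per group. Whether RNA was pooled is not stated, and with 1 library per group differences between animals cannot be seen.

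The dermal papilla is the cluster of mesenchymal cells at the base of the HF that signals to the epithelial matrix cells around it and directs hair growth. R-spondins are secreted proteins that bind the receptors Lgr4, Lgr5 and Lgr6 and draw the ubiquitin ligases Rnf43 and Znrf3 away from the Frizzled receptors, which leaves more Frizzled on the cell surface and strengthens the response to Wnt ligands. Wnt signalling in the HF is known for its part in starting anagen, and papilla cells are one source of R-spondins in skin.

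The promoters of 4 of the genes are shown because these genes span the patterns described below: Rspo1 and Rspo4 were higher in anagen, Vcan differed between ages in anagen, and Alpl was nearly level. Each is the 250 bases before a RefSeq gene start on GRCm38.p6, read on the strand of the gene, with capitals marking the motifs GGGCGG (the core of the GC box) and CTTTGT (a form of the motif bound by TCF and LEF proteins, which act in Wnt signalling), in either orientation. The regions are chr4:124986180-124986429 on the plus strand for Rspo1, chr2:151842677-151842926 on the plus strand for Rspo4, chr13:89742513-89742762 on the minus strand for Vcan, and chr4:137796385-137796634 on the minus strand for Alpl.
Rspo1: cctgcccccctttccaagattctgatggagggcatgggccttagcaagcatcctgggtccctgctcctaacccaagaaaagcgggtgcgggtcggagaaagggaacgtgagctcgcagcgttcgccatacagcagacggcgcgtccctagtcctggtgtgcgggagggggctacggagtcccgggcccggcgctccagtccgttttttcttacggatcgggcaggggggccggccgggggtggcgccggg
Rspo4: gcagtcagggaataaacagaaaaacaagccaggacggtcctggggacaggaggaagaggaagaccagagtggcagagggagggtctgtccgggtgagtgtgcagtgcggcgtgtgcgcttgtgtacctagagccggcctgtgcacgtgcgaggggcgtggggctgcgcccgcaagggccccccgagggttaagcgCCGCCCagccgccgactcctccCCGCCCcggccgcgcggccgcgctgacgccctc
Vcan: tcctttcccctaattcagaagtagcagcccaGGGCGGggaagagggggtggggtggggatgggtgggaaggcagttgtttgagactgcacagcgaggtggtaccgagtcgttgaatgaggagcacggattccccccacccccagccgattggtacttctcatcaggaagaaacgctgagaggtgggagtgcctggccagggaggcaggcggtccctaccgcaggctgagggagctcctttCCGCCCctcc
Alpl: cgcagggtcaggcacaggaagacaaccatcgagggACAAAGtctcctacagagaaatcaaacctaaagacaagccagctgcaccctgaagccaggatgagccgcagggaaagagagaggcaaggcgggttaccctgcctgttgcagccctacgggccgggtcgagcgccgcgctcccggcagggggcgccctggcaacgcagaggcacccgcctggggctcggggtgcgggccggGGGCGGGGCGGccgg
Rspo4, Vcan and Alpl each held 2 copies of GGGCGG or its reverse complement CCGCCC, and those of Alpl share letters. At least 1 copy is held by 32.7% of 32851 promoters of this length, and the share holding 2 was not counted. Alpl also held 1 copy of CTTTGT as its reverse complement ACAAAG, found in 16.5% of promoters. The motifs CTTTGA, another TCF and LEF form held by 13.8% of promoters, and TATAAA, the TATA box held by 12.4%, were searched on both strands and are not in these 4 windows. A second RefSeq start of Alpl, not printed, held 2 copies of CTTTGT, 1 of TATAAA and none of GGGCGG. The GC content was 66.8% for Rspo1, 69.6% for Rspo4, 62.4% for Vcan and 68.4% for Alpl, against a median of 52.4% over all promoters of this length. RefSeq promoters were matched for 6 of the 10 genes, and those of Sox18, Rspo2, Rspo3 and Trps1 were not used here. A motif match describes the letters only.

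The unit of all values is FPKM, fragments mapped to a gene scaled to its length and to the fragments of the library, as the authors deposited it. The scale accounts for the listed length, which for 97.0% of genes is a multiple of 3 (coding length). The counting tool is not given, so whether reads outside the coding part were counted is not known. Levels and shares of different genes can therefore be compared only roughly. A change is the difference of log2(FPKM + 1) between 2 libraries, a scale that shrinks the changes of weakly expressed genes, and "rose" and "fell" are used where it was at least 1 in size. Folds are ratios of FPKM, with 95% exact binomial intervals on an estimated number of fragments, which cover counting error only. The depth estimated from the lowest FPKM values was 20000000 to 24500000 fragments per library, and a gene under the value of 3 fragments was taken as under the floor. Mitochondrially encoded genes took up 52.7% and 44.7% of all FPKM in OTD and YTD against 18.3% and 14.4% in OAD and YAD, and keratin and keratin-associated protein genes held 0.0635% and 0.113% in OTD and YTD against 15.1% and 13.9% in OAD and YAD. Adipocyte markers were all present (15 of 15 at an FPKM of at least 1), beside skeletal muscle genes with a summed FPKM of 9245 to 78438. Where the values were rescaled to TPM, so that each library sums to the same total, the median gene moved by 0.76 between YAD and YTD and by 0.58 between OAD and OTD on the log2 scale, and directions that this changes are named beside the gene. In bulk tissue, fewer cells of a type and less RNA per cell cannot be told apart.

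Between the phases, the R-spondins and Trps1 were higher in anagen at both ages, Sox18 and Prom1 were lower, and Alpl was almost level. In young mice 5 of the 10 genes rose in YAD (Rspo1, Rspo2, Rspo3, Rspo4 and Trps1), where 16.1% of 17622 genes rose, and 1 fell (Sox18), where 16.7% of genes fell and 32.7% passed in either direction. In old mice 4 rose in OAD (Rspo1, Rspo3, Rspo4 and Trps1), where 16.1% of 17712 genes rose, and 2 fell (Sox18 and Prom1), where 15.6% fell and 31.7% passed in either direction. The median change of the 10 genes was 0.90 in young and 0.38 in old mice on the log2 scale. Between ages, none of the 10 genes passed this size in telogen, where 3.6% of 17230 genes did (1.67% higher and 1.93% lower in OTD), and only Vcan did in anagen, where 1.18% of 17613 genes did (0.727% higher and 0.454% lower in OAD).

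**Figure D1:**
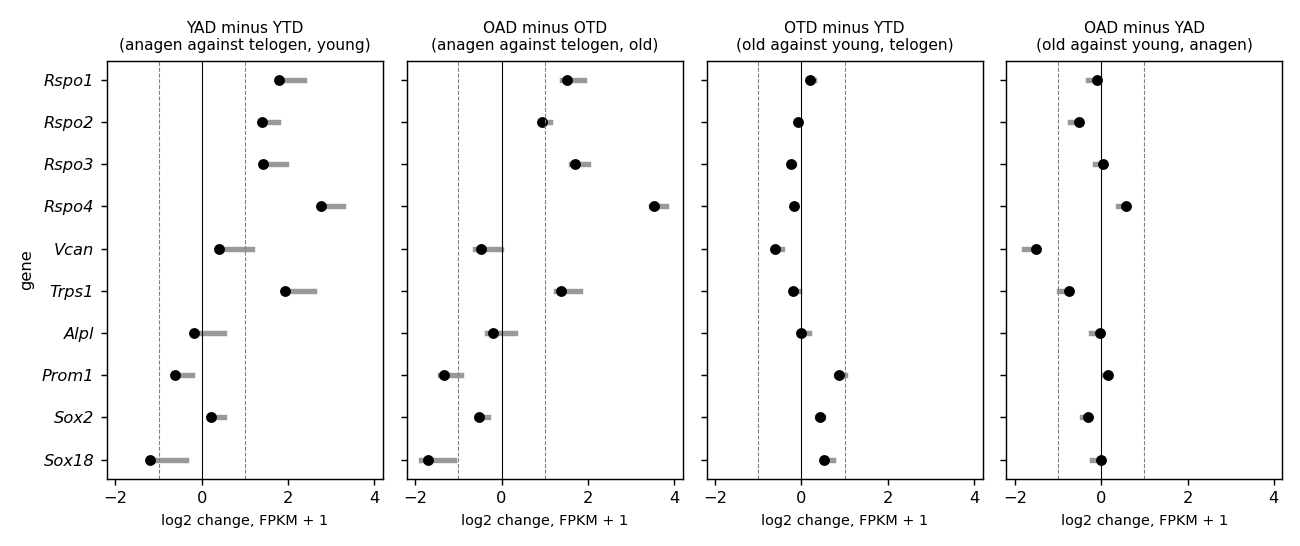
Change of each of the 10 genes in log2(FPKM + 1) in the 4 comparisons, with grey bars for the range over 5 scalings of the libraries and dashed lines at a change of 1 in size. Rspo4 lies farthest to the higher side in both comparisons of anagen with telogen, and Vcan alone lies past the line between OAD and YAD, at -1.51.

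**Figure D2:**
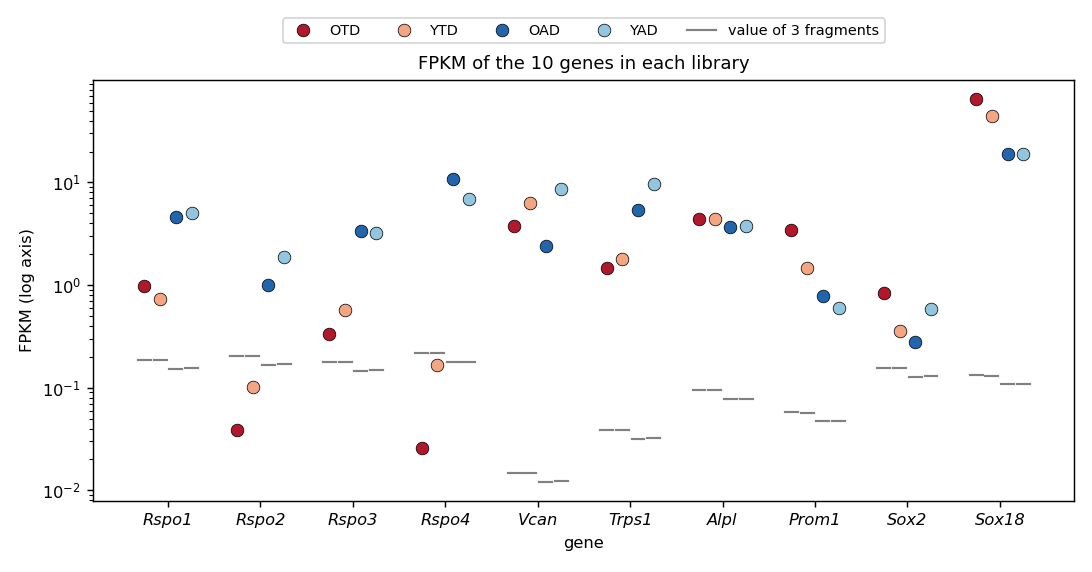
FPKM on a log axis of each of the 10 genes in the 4 libraries (1 point per library, no replicates), with grey lines at the FPKM that 3 fragments give. The R-spondins and Trps1 sit higher in both anagen libraries, Sox18 and Prom1 sit higher in both telogen libraries, and Rspo2 and Rspo4 lie under the line in telogen.

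Rspo4 (ENSMUSG00000032852, chromosome 2, 151842927 to 151874668, plus strand) had the widest range of the set. Its FPKM was 0.0261 in OTD and 0.166 in YTD, against 10.9 in OAD and 6.94 in YAD. Both telogen values were under the floor, so that the gene was hardly detectable in telogen dWAT at this depth and stood well above it in anagen. The change was 2.77 in young and 3.54 in old mice on the log2 scale, which placed Rspo4 at rank 580 of 17622 and 399 of 17712 genes from the highest. In FPKM, the value in OAD was 50.0-fold the floor in OTD, which is a lower bound on the ratio of OAD to OTD. In young mice the ratio was 41.9 (interval 13.0 to 402) on about 2.29 fragments in YTD. Rspo4 was also higher in OAD than in YAD, by 1.57-fold (1.24 to 2.00) or 0.58 on the log2 scale, which is under the size counted as a rise.

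Rspo1 (ENSMUSG00000028871, chromosome 4, 124986430 to 125009099, plus strand) was the R-spondin with the highest value in both telogen libraries, although in YTD it could not be told apart from Rspo3 at this depth. In OTD Rspo1 rested on about 15.5 fragments and Rspo3 on about 5.57. Its FPKM was 0.971 in OTD and 0.729 in YTD, against 4.60 in OAD and 5.003 in YAD. Both anagen values lay above both telogen values, with a ratio of 6.86 (3.67 to 13.4) in young and 4.73 (2.68 to 8.39) in old mice, and the ages differed by 0.19 in telogen and by -0.10 in anagen on the log2 scale. Rspo3 (ENSMUSG00000019880, chromosome 10, 29453109 to 29535867, minus strand), which is also known in vessel development, stood in FPKM at 0.333 in OTD and 0.572 in YTD, against 3.33 in OAD and 3.24 in YAD. It too was higher in both anagen libraries, by 5.67-fold (2.80 to 11.9) in young mice and 9.999-fold (4.04 to 26.1) in old mice, with OAD and YAD at nearly the same level. Rspo3 shares 97 coding bases with the antisense gene Gm48159, and the strand of the libraries is not stated, so reads of the pair cannot be told apart there.

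Rspo2 (ENSMUSG00000051920, chromosome 15, 43020811 to 43170818, minus strand), an R-spondin known in hair growth and, in dogs, coat type, had the lowest FPKM of the family in anagen. Its FPKM was 0.0389 in OTD and 0.101 in YTD, against 1.01 in OAD and 1.88 in YAD. Both telogen values were under the floor. The change was 1.39 in young mice, with a ratio of 18.6 (4.58 to 1113) that rests on about 1.49 fragments in YTD. In old mice it was 0.95, which is just under the size counted. The value in OAD was 4.92-fold the floor of OTD, a lower bound on the ratio of OAD to OTD. After rescaling to TPM the change in old mice was 1.12 and passed. YAD exceeded OAD by 1.87-fold (1.01 to 3.49), the opposite order to Rspo4.

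The summed FPKM of the 4 R-spondins was 1.37 in OTD and 1.57 in YTD against 19.8 in OAD and 17.1 in YAD. The make-up of this sum, a ratio within a library that no scaling between libraries alters, differed between phases. Rspo1 held 70.9% of the sum in OTD and 46.5% in YTD, against 23.2% in OAD and 29.3% in YAD. Rspo4 held 1.91% in OTD and 10.6% in YTD from values under the floor, against 55.0% in OAD and 40.7% in YAD. Rspo3 held 24.3% in OTD and 36.5% in YTD, against 16.8% in OAD and 19.0% in YAD. Rspo4 was first in both anagen libraries, while in YTD Rspo1 and Rspo3 rested on about 11.7 and 9.59 fragments, too few to order them. In OTD Rspo1 and Rspo3 rested on about 15.5 and 5.57 fragments, so the shares in both telogen libraries are rough. Between OAD and YAD, Rspo2 per Rspo4 was 0.0922 against 0.271.

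**Figure D3:**
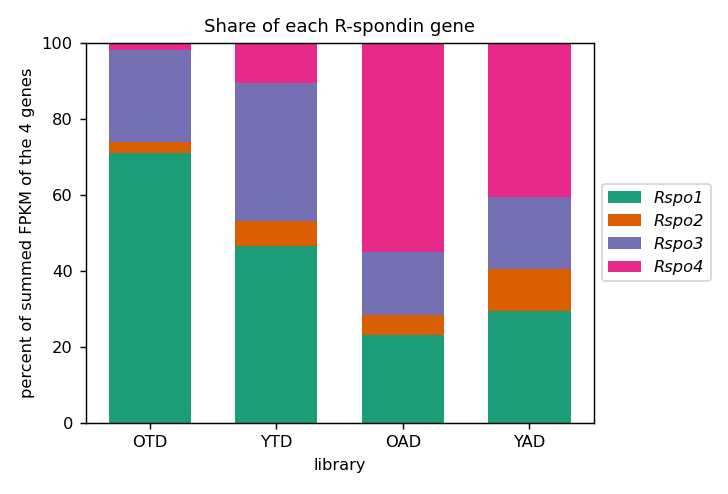
Share in percent of the summed FPKM of the 4 R-spondins that each gene held in each library, as stacked bars that add to the whole. Rspo1 takes the largest share in OTD (70.9%) and YTD (46.5%), in both on few fragments, and Rspo4 in OAD (55.0%) and YAD (40.7%).

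The genes that receive and relay the R-spondin signal were higher in anagen as well. Lgr4, the broadly expressed receptor, stood in FPKM at 6.72 in OTD and 8.56 in YTD, against 20.8 in OAD and 17.7 in YAD, so it was present in every library. Lgr5, a receptor that marks HF stem cells, had 0.846, 0.739, 6.33 and 5.33 in the same order. Lgr6 had 0.116, 0.219, 2.65 and 3.03. All 3 receptors were higher in both anagen libraries than in either telogen library, with ratios of 3.10 (2.77 to 3.48) for Lgr4, 7.49 (5.54 to 10.4) for Lgr5 and 22.9 (10.5 to 55.4) for Lgr6 in old mice. In young mice the ratios were 2.07 (1.86 to 2.30) for Lgr4, a change of 0.97 that did not pass, 7.22 (5.25 to 10.4) for Lgr5 and 13.8 (7.81 to 26.0) for Lgr6. The ligases followed, with Rnf43 at 0.123 in OTD and 0.308 in YTD, against 9.83 in OAD and 10.6 in YAD, and Znrf3 at 1.29, 1.52, 8.18 and 9.39. Rnf43 and Znrf3, themselves known as targets of Wnt signalling, rose by 3.15 and 2.04 in young and by 3.27 and 2.01 in old mice on the log2 scale.

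Of the 17 receptors and ligases listed, Frizzled and Lrp genes included, 10 rose, 2 fell and 5 did not pass in young mice (median 1.72), and 10 rose, 1 fell and 6 did not pass in old mice (median 1.45). The median over all genes tested stood near 0 on this scale. Fzd4, a Frizzled of blood vessels among other tissues, fell at both ages, from 56.8 in YTD to 13.6 in YAD and from 56.1 in OTD to 11.3 in OAD. Of 17 Wnt ligands tested at each age, 9 rose and 1 fell in young mice and 9 rose and none fell in old mice. Of 13 genes of Wnt response and secretion, 8 rose in young and 6 in old mice and none fell. After rescaling to TPM 11 and 9 rose, on a scale where the median gene was itself higher by 0.76 and 0.58. Axin2, a general target of the pathway, stood at 4.06 in OTD and 4.12 in YTD, against 19.3 in OAD and 23.8 in YAD. Between ages none of the 17 receptors and ligases and none of the 13 response genes passed in either phase on the deposited scale. After rescaling to TPM 1 response gene passed, lower in OAD. By direction alone, 13 of the 17 and 11 of the 13 were lower in OAD than in YAD, with medians of -0.10 and -0.17. After rescaling to TPM these counts were 14 and 13. In telogen 10 of the 17 and 5 of the 13 were lower in OTD.

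**Figure D4:**
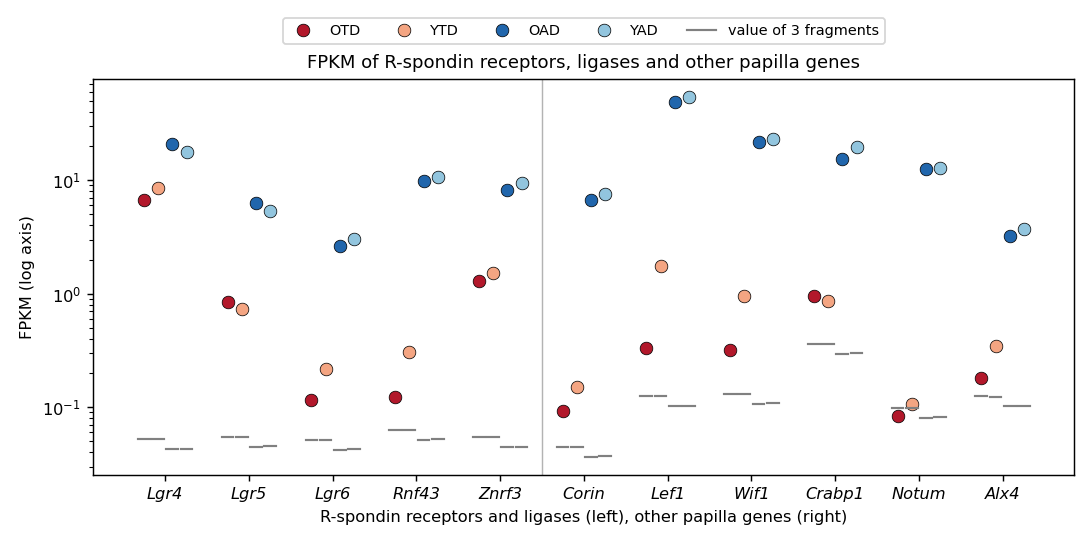
FPKM on a log axis of the R-spondin receptors and ligases (left) and of 6 other papilla genes (right), which all rose and come from a list of 20 in which others fell, in the 4 libraries, 1 point per library, with grey lines at the FPKM that 3 fragments give. For each of the 11 genes both anagen points lie above both telogen points, while OAD and YAD lie close together.

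Other genes of the papilla moved in both directions. Of 20 such genes, 9 rose, 2 fell and 9 did not pass in young mice (median 0.89), and 10 rose, 4 fell and 6 did not pass in old mice (median 0.75). After rescaling to TPM, 12 rose and none fell in young mice, and 10 rose and 2 fell in old mice. On that scale the median gene was itself higher in anagen, by 0.76 in young and 0.58 in old mice. In young mice 33.4% of all genes rose there and 7.23% fell. Corin, a protease of the papilla, stood in FPKM at 0.0924 in OTD and 0.151 in YTD, against 6.75 in OAD and 7.58 in YAD. Lef1, a transcription factor of Wnt signalling in papilla and matrix, had 0.333, 1.77, 49.1 and 54.4, and Notum, an enzyme that inactivates Wnt, had 0.0833, 0.108, 12.6 and 12.9. Wif1 (a secreted Wnt inhibitor), Crabp1 (a retinoic acid binding protein) and Alx4 (a homeobox factor) rose likewise, by 3.63, 3.46 and 1.82 in young and by 4.10, 3.08 and 1.84 in old mice on the log2 scale. On the deposited scale the genes that fell at both ages were Ncam1, an adhesion molecule also of nerve and muscle, with changes of -1.15 in young and -1.38 in old mice, and Igfbp3, which binds insulin-like growth factors, with changes of -1.28 and -1.94.

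Markers of the HF bulb that is not papilla rose at the same time. All 13 hair matrix and shaft genes matched rose at both ages, with a summed FPKM of 234 in OTD and 408 in YTD against 18956 in OAD and 14412 in YAD, and all 9 melanocyte genes rose, from 17.2 and 20.1 to 475 and 772. Of 10 epidermal genes 7 rose at each age, and their summed FPKM was 72.9 in OTD and 103 in YTD against 1691 in OAD and 1203 in YAD. Several genes of the lists above, Lef1 and Lgr5 among them, are also expressed in the epithelial bulb. The part of these cells in the R-spondin and papilla results was not tested.

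Trps1 (ENSMUSG00000038679, chromosome 15, 50654752 to 50890463, minus strand) encodes a GATA-type repressor that is required for normal hair. Its FPKM was 1.46 in OTD and 1.81 in YTD, against 5.39 in OAD and 9.70 in YAD. Both anagen values were above both telogen values, with YAD highest. The ratio was 5.35 (4.47 to 6.42) in young and 3.68 (2.998 to 4.56) in old mice, and YAD exceeded OAD by 1.80-fold (1.61 to 2.01), which on the log2 scale is a change of -0.74 in OAD and did not pass. Its relative Gata3, known in the inner root sheath, stood in FPKM at 0.935 in OTD and 2.06 in YTD, against 53.5 in OAD and 57.9 in YAD.

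Vcan (ENSMUSG00000021614, chromosome 13, 89655312 to 89742509, minus strand) encodes versican, a large proteoglycan of the papilla matrix that is also made by other mesenchymal cells. Its FPKM was 3.74 in OTD and 6.30 in YTD, against 2.39 in OAD and 8.67 in YAD. Both young libraries were above both old ones, and OAD was the lowest of the 4 while YAD was the highest. Versican fell in OAD against YAD by 1.51 on the log2 scale, a ratio of 3.64 (3.32 to 3.99) in favour of YAD, and stood 27th from the lowest of 17613 genes. In telogen OTD was below YTD by 1.69-fold (1.54 to 1.85), a change of -0.62 that did not pass. The phases differed in opposite directions at the 2 ages, with YAD 1.38-fold above YTD and OAD 1.57-fold below OTD, and neither passed on the deposited scale, although after rescaling to TPM the change in young mice was 1.16. Over 5 scalings the difference between OAD and YAD lay between -1.78 and -1.50.

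Other papilla genes did not differ as much between OAD and YAD. Of the 20, none rose and 1 fell, Fgf7, a growth factor made by the papilla and by fibroblasts, which had 5.35 in YAD and 2.13 in OAD (ratio 2.51, 1.61 to 3.89), and the median was -0.15. The summed FPKM of Corin, Crabp1, Notum and Alx4, a reference chosen after the values were seen from genes that rose in anagen, was 38.1 in OAD and 43.8 in YAD. Others of the 20 genes had values on either side of 0 between OAD and YAD, such as Fgf10 at -0.75 and Inhba at 0.59 on the log2 scale, so the percentages that follow rest on this choice. Versican was 6.26% of this sum in OAD and 19.8% in YAD, Trps1 was 14.1% and 22.2%, and Rspo1 was 12.1% and 11.4%. Rspo4 went the other way, at 28.6% in OAD and 15.9% in YAD. Of 12 fibroblast markers, 3 fell in OAD against YAD, the collagens Col1a1 by 1.90, Col1a2 by 1.80 and Col3a1 by 1.48 on the log2 scale, and 9 did not pass, of which Dpp4 (0.38) and Ly6a (0.15) were higher in OAD. The median of the list was -0.47, and the summed FPKM of the list was 306 in OAD and 513 in YAD. Versican was 0.779% of that sum in OAD and 1.69% in YAD, while per Col1a1, the marker of the list that fell most, it was 0.144 and 0.135. The part of fibroblasts outside the papilla in the versican result was not tested. Of 15 other genes of the versican matrix, such as hyaluronan synthases and the proteases that cut versican, none passed between OAD and YAD.

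Alpl (ENSMUSG00000028766, chromosome 4, 137741733 to 137796384, minus strand) encodes tissue-nonspecific alkaline phosphatase, whose activity is a common stain of the papilla. Its FPKM was 4.36 in OTD and 4.402 in YTD, against 3.69 in OAD and 3.799 in YAD, on 137 to 145 fragments. The 4 libraries lay within 0.20 of each other on the log2 scale. The ratio of YTD to YAD was 1.16 (0.917 to 1.48) and of OTD to OAD 1.18 (0.926 to 1.503), and the direction between phases flipped with scaling, from -0.17 to 0.51 in young and from -0.33 to 0.30 in old mice. Relative to the endothelial list, Alpl was higher in anagen, by 1.53 in young and 1.72 in old mice on the log2 scale without a pseudocount. That reference was added after the values were seen, and its markers fell, so a nearly level gene is higher beside it by construction. Alpl did not follow Corin or Notum, which rose, although all are used as papilla genes. It was not alone in this. Of the 20 other papilla genes, 9 rose, 2 fell and 9 did not pass in young mice. In old mice 10 rose, 4 fell and 6 did not pass. Alpl is also expressed by vessels and other cells, and their part in its values was not tested.

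Sox18 (ENSMUSG00000046470, chromosome 2, 181669836 to 181671640, minus strand), a transcription factor of developing vessels that also acts in the papilla of some hair types, had the highest FPKM of the 10 genes in every library. Its FPKM was 64.6 in OTD and 44.8 in YTD, against 19.1 in OAD and 19.1 in YAD. It was higher in both telogen libraries, by 2.35-fold (2.11 to 2.61) in young and 3.39-fold (3.06 to 3.75) in old mice, and OAD and YAD were level, with a ratio of 1.003 (0.887 to 1.13). OTD exceeded YTD by 1.44-fold (1.33 to 1.56). The change in young mice was -1.19 as deposited, but -0.98 when the library sum left out mitochondrial genes, -0.88 when it also left out muscle and keratin genes, and -0.37 after rescaling to TPM, none of which passed, while the change in old mice passed under each of the 5 scalings (-1.87 to -1.11).

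Markers of several cell types fell in the same comparisons as Sox18. All 15 endothelial markers fell in anagen at both ages (medians -1.57 and -1.85), although after rescaling to TPM 4 of the 15 passed in young and 13 in old mice, all in the same direction, with a summed FPKM of 741 in OTD and 498 in YTD, against 191 in OAD and 149 in YAD. Among them, Pecam1, the adhesion molecule CD31, had 119, 69.1, 23.9 and 18.3. Sox18 was 8.71% of that sum in OTD and 9.002% in YTD, against 10.003% in OAD and 12.9% in YAD, so relative to these markers it was not lower in anagen. The related genes Sox17 and Sox7 are among the 15 markers, with Sox17 at 28.8, 28.8, 6.86 and 9.27 and Sox7 at 7.99, 6.11, 2.09 and 1.52. Adipocyte markers fell as well, 14 of 15 in young and 12 of 15 in old mice, as did 9 and 10 of 12 fibroblast markers and 10 and 9 of 10 skeletal muscle genes, so the fall was not particular to vessels. After rescaling to TPM, 5 and 6 adipocyte, 3 and 9 fibroblast and 8 and 8 muscle genes passed. The part of endothelial cells in the Sox18 result was not tested beyond these ratios.

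Prom1 (ENSMUSG00000029086, chromosome 5, 43993625 to 44102032, minus strand) encodes CD133, a membrane protein found on papilla cells, some epithelia and progenitors. Its FPKM was 3.45 in OTD and 1.45 in YTD, against 0.776 in OAD and 0.595 in YAD. OTD was the highest and both anagen libraries were lowest. The ratio was 4.45 (3.20 to 6.15) for OTD to OAD, a change of -1.33 that was -0.95 after rescaling to TPM and then did not pass, and 2.44 (1.61 to 3.66) for YTD to YAD, a change of -0.62 that did not pass. OTD exceeded YTD by 2.38-fold (1.81 to 3.15), or 0.86 on the log2 scale, the largest change with age in telogen among the 10 genes, and this passed, at 1.01, when the library sum left out mitochondrial genes. Prom1 shares 424 exon bases, none coding, with the antisense gene Gm16401. Prom1 per Pecam1 was 0.0290 in OTD and 0.0210 in YTD, against 0.0325 in OAD and 0.0325 in YAD. Of the summed endothelial list it was 0.466% in OTD and 0.291% in YTD, against 0.407% in OAD and 0.400% in YAD. OAD was thus above OTD by Pecam1 and below it by the list, while YAD was above YTD by both. Both ranges were narrow beside that of its FPKM. The part of endothelial cells in the Prom1 result was not tested beyond these ratios. Prom2, the other gene of its family, went the opposite way, from 0.332 in OTD and 0.7005 in YTD to 46.8 in OAD and 35.2 in YAD.

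**Figure D5:**
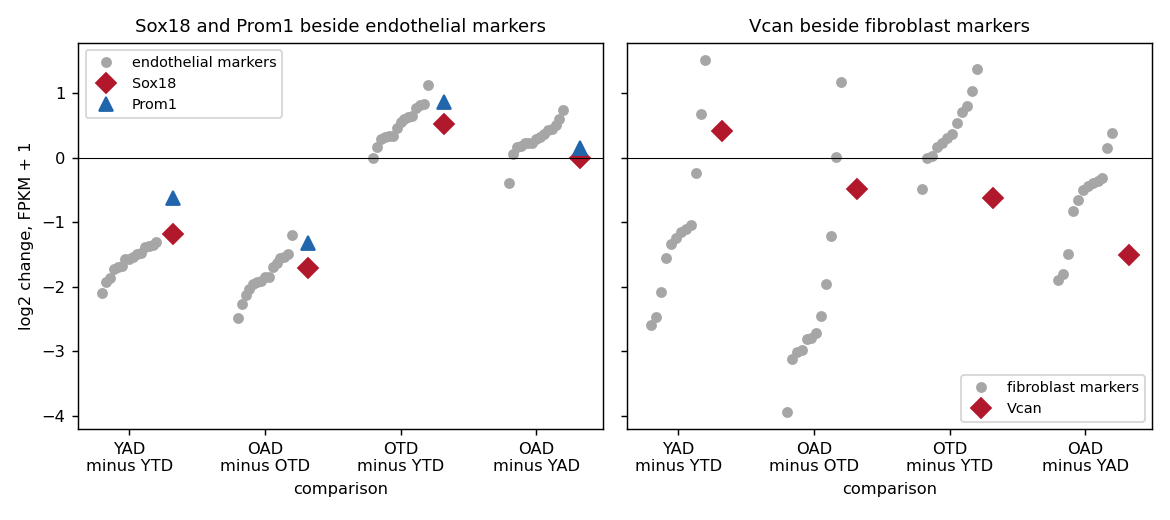
Change in log2(FPKM + 1) in the 4 comparisons of Sox18 and Prom1 beside 15 endothelial markers (left) and of Vcan beside 12 fibroblast markers (right), with 1 grey point per marker. Sox18 lies on the same side of 0 as all 15 endothelial markers in both comparisons of anagen with telogen, and Vcan, at -1.51 between OAD and YAD, lies among the collagens Col1a1, Col1a2 and Col3a1 and below the other fibroblast markers.

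Sox2 (ENSMUSG00000074637, chromosome 3, 34650005 to 34652461, plus strand), a transcription factor of the papilla of guard, awl and auchene hairs, was low throughout. Its FPKM was 0.829 in OTD and 0.359 in YTD, against 0.282 in OAD and 0.585 in YAD, on 6.63 to 15.9 fragments. The interval of the ratio left out 1 only between OTD and OAD, at 2.94 (1.09 to 8.04), and the other 3 comparisons could not be told from no difference at this depth. Sox2 is also a gene of Merkel cells and of Schwann cell precursors. Of 6 Merkel cell markers, 3 reached an FPKM of 1, and Atoh1, the defining factor, was listed at 0 in YTD, OAD and YAD, while 8 Schwann cell genes summed to 491 in OTD and 386 in YTD, against 92.4 in OAD and 109 in YAD. The part of these cells in the Sox2 values was not tested. Among the other Sox genes, Sox21, known in hair shaft cells, had 0.477 in OTD and 0.790 in YTD, against 37.0 in OAD and 52.7 in YAD, and Sox9, of the outer root sheath, had 1.37, 1.44, 11.8 and 7.28.

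Ordered by FPKM within a library, Sox18 stood first and Sox2 last in both anagen libraries. The order in OAD was Sox18, Rspo4, Trps1, Rspo1, Alpl, Rspo3, Vcan, Rspo2, Prom1 and Sox2, and in YAD Sox18, Trps1, Vcan, Rspo4, Rspo1, Alpl, Rspo3, Rspo2, Prom1 and Sox2. The 2 orders differ mainly in the place of Vcan, at 2.39 in OAD and 8.67 in YAD, and of Rspo4. Comparisons of the same phase or age share libraries, so the values are set out here without a measure of their likeness.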

How the data were processed

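RNA of dWAT was sequenced in 4 libraries, 1 per group. For each library the authors deposited the FPKM of 22913 genes, with positions on GRCm38 and a length per gene, of which 97.0% are multiples of 3 (coding length). The submitters' processing notes name bcl2fastq and TopHat2, and the counting tool and annotation are not given in the sources used here. Of 22166 Ensembl identifiers, 21750 were matched to a symbol.

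Changes are differences of log2(FPKM + 1), with a pseudocount of 1 and a threshold of 1 in size, over genes with a value above 0 in either library of a comparison. Depth was estimated from the lowest values of FPKM times length in features of 1500 to 6000 bp and is rough. The floor is 3 fragments, a value of less than 1 fragment was taken as 0, and 95% intervals (Clopper-Pearson) cover counting error only. With 1 library per group no test was run. The 10 genes and the marker lists were chosen with earlier results of these data known. Named are the 10 genes, listed genes past the threshold or needed for a role, and the 5 genes most like the gene of widest range. A reference of 4 papilla genes was chosen after the values were seen. Alternatives were other pseudocounts, thresholds, a filter and 4 scalings. Steps were tested on simulated data. Promoters are from RefSeq (GRCm38.p6), and overlaps from a GENCODE annotation. Python 3.11.15, numpy 2.4.6, pandas 2.3.3, scipy 1.17.1 and matplotlib 3.10.9 were used.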

Additional observations from a re-analysis of the deposited data

How the results depend on the processing

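No paired analysis was possible because each group has 1 library, and for the same reason no replicate could be left out. The count of the 10 genes past the threshold was 6 between YAD and YTD, and 3 at a threshold of 1.5. With a pseudocount of 0.1 it was 7 there, where 48.1% of all genes passed. Between OAD and OTD it was 6 and stayed between 4 and 8 over the alternatives, which also moved the share of all genes, given below. Between OTD and YTD it was 0, against 4 with a pseudocount of 0.01, 1 (Prom1) when the library sum left out mitochondrial genes, and 2 at a threshold of 0.58. Between OAD and YAD it was 1 (Vcan), against 2 with a pseudocount of 0.01 and 3 at a threshold of 0.58. Small pseudocounts give weight to values under the floor. Of all genes, the share past the threshold between YAD and YTD was 32.7%, against 55.4% with a pseudocount of 0.01, 18.6% at 1.5 and 52.6% at 0.58; between OAD and OTD 31.7%, against 54.3%, 17.9% and 51.1%; between OTD and YTD 3.6%, against 20.0%, 0.818% and 16.2%; and between OAD and YAD 1.18%, against 13.8%, 0.329% and 5.08%. After rescaling to TPM, 33.4% of genes rose and 7.23% fell between YAD and YTD, and 27.8% and 8.48% between OAD and OTD; between OTD and YTD, leaving out mitochondrial genes gave 2.84% and 1.08%, and between OAD and YAD TPM gave 0.590% and 0.994%. References added after the values were seen set the FPKM of a gene against the sum of a list, as log2 ratios without a pseudocount. Their sizes therefore cannot be set against changes of log2(FPKM + 1). The endothelial and fibroblast sums were themselves lower in anagen at both ages. A gene whose decrease was smaller than that of the list turns higher by construction, so these values describe it beside the list only. With these references Sox18 stood at 0.51 in young and 0.20 in old mice relative to the endothelial list. Relative to the fibroblast list it stood at 0.36 and 1.03, and Prom1 in old mice at 0.63. Among genes that had not passed, Prom1 in young mice stood at 0.46 and 0.30 relative to the endothelial and the fibroblast list. In the same order Alpl stood at 1.53 and 1.38 in young and 1.72 and 2.55 in old mice. Sox2 in old mice stood at 0.40 and 1.23 and Vcan in old mice at 1.31 and 2.14, where log2(FPKM + 1) changed by -0.51 and -0.48. Vcan between OAD and YAD kept its direction, at -1.66 relative to the 4 papilla genes, -2.22 to the endothelial list and -1.12 to the fibroblast list. Without a reference its plain ratio of FPKM was 3.64 in favour of YAD. Depth limits all 4 R-spondins in telogen, Rspo2 and Rspo4 most, and Sox2 in every library.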

Other observations

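Some genes of the versican matrix differed between ages in telogen. Of 14 other genes of the versican matrix tested, 3 rose in OTD against YTD: Has1, a hyaluronan synthase, from 0.168 in YTD to 3.16 in OTD, and the versican-cutting proteases Adamts1, from 7.83 to 24.7, and Adamts4, from 0.238 to 1.62. Adamts20, another protease of the family, fell from 2.65 to 0.737. After rescaling to TPM, 2 of the 14 rose and none fell. In OAD and YAD these 4 genes differed by less, with Has1 at 0.180 and 0.112 and Adamts1 at 7.62 and 7.16, and whether the difference with age differs between phases was not tested. Lef1 was the 1 of 19 other papilla genes that passed in telogen, from 1.77 in YTD to 0.333 in OTD, on about 7.96 fragments in OTD. None of the 19 passed after rescaling to TPM. Lef1 is also expressed in the epithelial bulb. Of 13 hair matrix and shaft genes, 12 were lower and 1 was higher in OTD than in YTD. Of these, 4 fell, where 1.93% of all genes fell. The part of bulb cells in the Lef1 difference was not tested.

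The 5 genes whose profile over the 4 libraries was most like that of Rspo4, by the distance between centred log2(FPKM + 1) values among 13567 genes, were Adgrf4 (0.125), Pard6b (0.134), Sbsn (0.143), Fam49a (0.148) and Pof1b (0.167). All 5 were higher in OAD than in YAD and far lower in both telogen libraries, for example Sbsn at 11.1 in OTD and 11.8 in YTD, against 134 in OAD and 80.9 in YAD. With 4 libraries many genes can lie this close.

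Phospho1, a phosphatase of mineralisation listed beside Alpl, stood in FPKM at 176 in OTD and 461 in YTD, against 43.9 in OAD and 24.8 in YAD, a wide range beside the level values of Alpl. Skeletal muscle genes summed to 50978, 78438, 12409 and 9245 in the same libraries.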
